A study of Rattus norvegicus albus with 6 samples.

Results

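The 10 genes described here, which mark pericytes or carry platelet-derived growth factor (PDGF) signals, were followed in rat hepatic stellate cells treated with 3 agents that act against canonical Wnt signalling. They are Rgs4, Rgs5, Pdgfra, Pdgfrb, Hgf, Notch3, Kcnj8, Cspg4, Aoc3 and Colec11, taken by exact gene symbol from 14322 named genes on the array. All 10 were found, each on 1 probe set, and all 10 passed a filter that left out the 30% of genes with the lowest mean level (up to 6.39 on the log2 scale). That filter kept 10025 genes. Aoc3 and Notch3 passed it through their controls. The list was drawn up with earlier results of these data known, so its counts describe the genes and are not independent evidence of their direction.

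Primary stellate cells of the rat were kept in culture on plastic for 7 days in 10% serum, by which time they were fully activated, and all 6 arrays come from such cells. The Ad.DKK-1 cells received an adenovirus that expresses DKK-1, an extracellular Wnt antagonist, and their Ad.GFP controls a virus that expresses green fluorescent protein, both at an MOI of 200 for 24 h in medium with 5% serum and then 24 h without serum. ICG-001, an inhibitor of the β-catenin and CBP interaction, was given at 10 µM, and FJ9, an inhibitor of the Frizzled and Dishevelled interaction, at 200 µM. Cells stayed in serum-free medium with either compound for 24 h, and each compound has a vehicle control of its own. Every group is 1 array, hybridised with the combined RNA of 3 to 4 rats. No single difference therefore has a replicate check. The p-values below rest on how far the 3 treated and control pairs differ from each other, moderated over all genes. They do not measure the spread among rats or pools. The sources used here do not give the strain, sex or age of the animals.

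Pericytes wrap the capillary wall, and the stellate cell is the pericyte of the liver sinusoid. PDGF released by platelets, macrophages and endothelium binds the receptor tyrosine kinases PDGFRα and PDGFRβ, and in stellate cells this is a strong signal for division and migration. RGS proteins shorten signals from G protein-coupled receptors by speeding up GTP hydrolysis on G protein α subunits, and RGS5 is widely used as a pericyte marker.

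The cell type in the labels was set against stellate cell markers. On the 3 control arrays Lrat, which esterifies retinol for storage, read 10.52 to 11.96 and Reln 11.72 to 12.29. Of 11 such markers measured 9 passed the level filter, which 30% of all genes fail by construction, and Gfap and Ngfr did not. The array median over all probe sets ran from 7.01 to 7.28, and the number of arrays limits the precision. Centring each array on its median moved the median of all filtered genes from 0.01 to 0.18 for ICG-001 and from 0.02 to 0.16 between the vehicle arrays. It also turned the split of all genes past 1.5-fold to 2218 higher and 754 lower for ICG-001, against 1267 higher and 1314 lower as deposited, and to 1874 higher and 1681 lower for Ad.DKK-1, against 1449 and 2082. Dkk1 read 6.01 on Ad.DKK-1 and 5.85 on Ad.GFP, under the level filter, and the sources used here do not say whether the rat probes would detect the viral insert, so these values bear neither way on the label.

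Most of the 10 genes were lower after each treatment. All 10 lay at least 1.5-fold under Ad.GFP with Ad.DKK-1, where 20.8% of all genes did, 7 lay that far under the vehicle with ICG-001 (13.1% of all genes), and 6 with FJ9 (14.8% of all genes). None of the 10 was 1.5-fold higher in any treatment, against 14.5% of all genes with Ad.DKK-1, 12.6% with ICG-001 and 11.6% with FJ9. The median difference of the 10 was −1.63 with Ad.DKK-1, −1.04 with ICG-001 and −1.19 with FJ9 on the log2 scale, beside medians over all genes of −0.065, 0.01 and 0.01. All differences are treated minus own control, and in RNA of a whole culture fewer cells of a type and less RNA per cell cannot be told apart.

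Rgs4, Rgs5, Pdgfra, Aoc3, Colec11 and Kcnj8 were at least 1.5-fold lower in all 3 treatments, 6 of the 10 genes, against 3.14% of all genes. In 8 of the 10 the highest treated array lay under the lowest control array, against 13.2% of all genes, and the exceptions were Cspg4 and Notch3. The vehicle arrays give the nearest measure of how far untreated pools differ. Between them (vehicle for FJ9 minus vehicle for ICG-001) 1 of the 10 genes, Aoc3, lay past 1.5-fold, where 5.2% of all genes were lower and 2.44% higher.

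The mean difference over the 3 treated and control pairs was tested with limma, with the pair as a block. That test concerns the average of 3 different treatments and never a single one. It called 7 of the 10 genes lower and none higher at an adjusted p under 0.05, against 5.02% of all genes called lower and 3.56% called higher. The 7 were Rgs4, Rgs5, Pdgfra, Aoc3, Colec11, Kcnj8 and Hgf. Among them, Aoc3 passed the level filter through its controls.

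**Figure D1:**
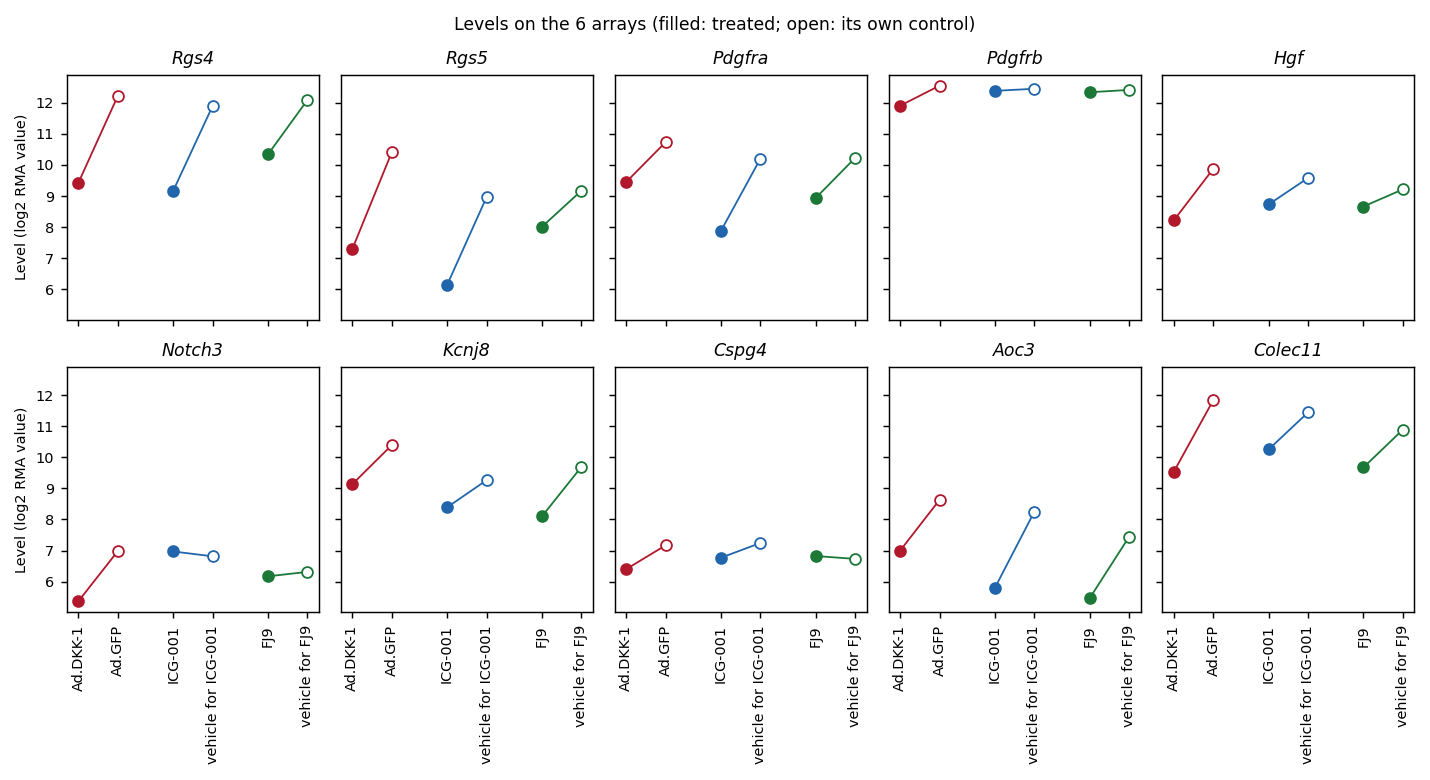
Level of each of the 10 genes (log2 RMA value, y axis) on the 6 arrays, 1 panel a gene, with the treated array as a filled point left of its own control, an open point. The lines of Rgs4, Rgs5, Pdgfra, Aoc3, Colec11, Kcnj8 and Hgf climb from treated to control in all 3 pairs. Those of Pdgfrb climb too, but stay between 11.91 and 12.55. Heights are not comparable between panels, since each is another probe set.

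The 2 RGS genes had the widest mean differences of the 10. Rgs4 read 9.43 on Ad.DKK-1, 9.17 on ICG-001 and 10.34 on FJ9, against 12.23 on Ad.GFP, 11.91 on the vehicle for ICG-001 and 12.10 on the vehicle for FJ9. The controls lay within 0.33 of each other, and the highest treated array was 1.57 under the lowest control. The differences of −2.80, −2.74 and −1.76 correspond to 6.99-fold, 6.68-fold and 3.38-fold lower levels. Among 10025 genes, Rgs4 had the 17th lowest difference with Ad.DKK-1, the 8th lowest with ICG-001 and the 169th lowest with FJ9. Its mean over the pairs fell by 2.43 (SE 0.22, limma adjusted p = 4.94e-05).

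Rgs5 read 7.29 on Ad.DKK-1, 6.13 on ICG-001 and 8.01 on FJ9, against 10.41, 8.96 and 9.17 on their controls in the same order. The level on ICG-001 lay under the filter level of 6.39, although the mean of the gene passed it. Its controls were less alike than those of Rgs4, with a range of 1.45 that came from a high Ad.GFP array, yet the groups did not overlap. Rgs5 was 8.71-fold lower with Ad.DKK-1 and 7.12-fold lower with ICG-001, the 7th and 5th lowest differences of all genes, and 2.25-fold lower with FJ9, the 458th lowest. The mean over the pairs fell by 2.37 (SE 0.32, limma adjusted p = 0.000475). Whether FJ9 truly moved Rgs5 less than ICG-001 did cannot be tested with 1 array each.

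Other RGS genes gave a mixed picture. Of 17 measured members of the family, Rgs4 and Rgs5 included, 11 passed the level filter, and of these 5 were lower and 3 higher with Ad.DKK-1, 5 lower and none higher with ICG-001, and 2 lower and 1 higher with FJ9. These and the later list counts stand beside the shares of all genes past the same fold. With Ad.DKK-1 20.8% of all genes were lower and 14.5% higher, with ICG-001 13.1% and 12.6%, and with FJ9 14.8% and 11.6%. The family medians were −0.41, −0.24 and −0.12, and limma called only Rgs4 and Rgs5 among the 11. Against the other compound's vehicle the family median with FJ9 was −0.61. Rgs2, which acts on Gq, differed by −0.87 with Ad.DKK-1, −0.038 with ICG-001 and 1.40 with FJ9. Rgs16 differed by 2.33 with Ad.DKK-1, where Ad.GFP stood at 5.01 against 6.33 and 7.32 on the vehicles, and by −0.11 and 0.0032 with the compounds.

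Receptors that couple to the G proteins on which RGS4 and RGS5 act were mostly closer to their controls. Of 9 such receptors past the filter, 1 was lower with Ad.DKK-1, 1 with ICG-001 and 4 with FJ9, none was higher, and the medians were −0.23, −0.23 and −0.57, the last −0.19 over all 11 measured without the filter. Limma called 1 of the 9, Lpar1, a receptor for lysophosphatidic acid. Lpar1 read 7.81 on Ad.DKK-1, 6.25 on ICG-001 and 7.30 on FJ9, against 8.74, 8.33 and 8.70 on their controls, and its mean fell by 1.47 (SE 0.27, limma adjusted p = 0.00395). The angiotensin receptor gene Agtr1a differed by −0.41, −0.11 and 0.043, and the thrombin receptor gene F2r by −0.41, −0.22 and −0.57.

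The 2 PDGF receptors differed in pattern. Pdgfra, whose product binds the PDGF A, B and C chains, read 9.45 on Ad.DKK-1, 7.88 on ICG-001 and 8.94 on FJ9, against 10.74, 10.21 and 10.23 on their controls. Every treated array lay at least 0.76 under every control array. The differences were −1.29, −2.33 and −1.29, and the one with ICG-001 was the 19th lowest of all genes. The 2 vehicle arrays differed by 0.025. The mean over the pairs fell by 1.64 (SE 0.23, limma adjusted p = 0.000674).

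Pdgfrb, which encodes the receptor for PDGF-BB that stellate cells gain on activation, read 11.91 on Ad.DKK-1, 12.39 on ICG-001 and 12.34 on FJ9, against 12.55, 12.46 and 12.42 on their controls. The groups did not overlap, but with ICG-001 and FJ9 the distance to the vehicle was −0.068 and −0.076, beside −0.038 between the vehicles. The mean difference of −0.26 had a 95% interval from −0.67 to 0.14 (limma adjusted p = 0.404), so the interval still holds a fall of 1.5-fold. With Ad.DKK-1 the difference was −0.65, a 1.57-fold lower level just inside the limit, and median centring took it to −0.55, which is short of it.

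PDGF ligands and the proteins next to the receptors were counted over a list of 14 measured genes, 13 past the filter. With Ad.DKK-1 4 were lower and 1 higher, with ICG-001 4 were lower and 2 higher, and with FJ9 8 were lower and none higher, with medians of −0.10, 0.11 and −0.84. Limma called 2 of the 13, both lower. Pdgfa, the A-chain ligand, read 10.07 on Ad.DKK-1, 10.29 on ICG-001 and 10.16 on FJ9, against 11.30, 11.28 and 11.41 on their controls, and its mean fell by 1.16 (SE 0.18, limma adjusted p = 0.00149). The groups were well apart and the controls within 0.13 of each other. The second was Pik3r1, a regulatory subunit of PI3 kinase, whose mean fell by 0.77 (SE 0.20, limma adjusted p = 0.0265).

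The remaining ligands went separate ways. Pdgfc differed by 0.48 with Ad.DKK-1, 1.01 with ICG-001 and −1.15 with FJ9, and Pdgfd, a PDGFRβ ligand, by −0.23, 0.33 and −1.12. Pdgfb was under the level filter, at 5.22 to 6.48 on the 6 arrays. Pdgfrl, a receptor-like gene, differed by −0.013, −1.07 and −1.42. Ptprj, a phosphatase that acts on the receptors, differed by −0.98, 0.64 and −0.84.

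**Figure D2:**
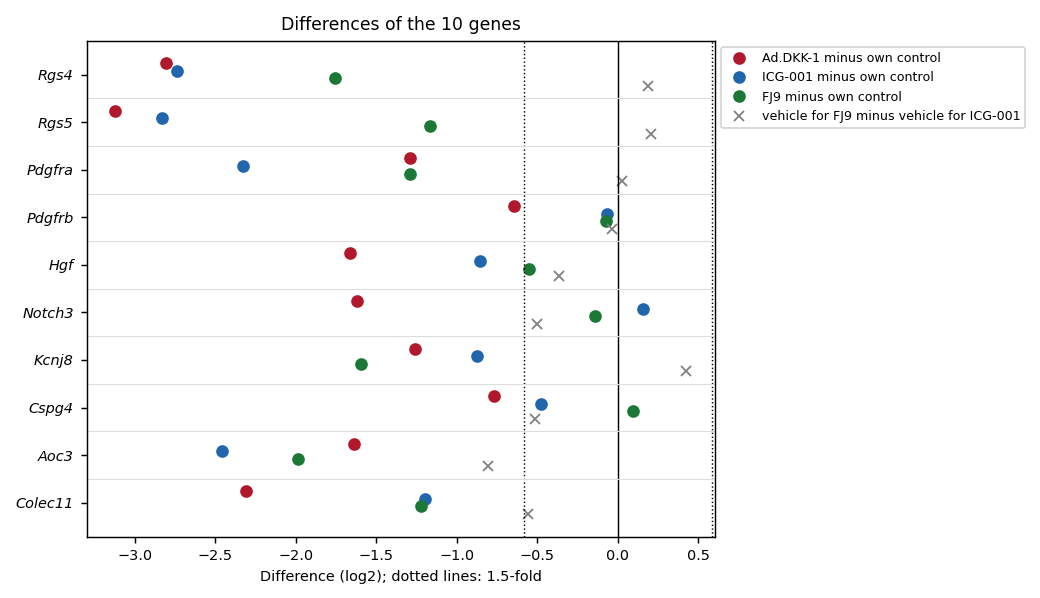
Difference on the log2 scale (x axis) for the 10 genes (rows), with 1 coloured point for each treatment minus its own control and a grey cross for the vehicle for FJ9 minus the vehicle for ICG-001. Dotted lines mark 1.5-fold. The points of Rgs4 and Rgs5 reach −2.80 and −3.12, Pdgfrb has 2 of its 3 points near 0, and the cross of Aoc3 lies at −0.81.

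Hgf encodes hepatocyte growth factor, which stellate cells secrete and hepatocytes receive through the receptor MET. It read 8.22 on Ad.DKK-1, 8.73 on ICG-001 and 8.66 on FJ9, against 9.88, 9.58 and 9.22 on their controls, and the groups stood 0.48 apart. The differences were −1.66, −0.85 and −0.55, so FJ9 fell short of 1.5-fold. The mean over the pairs fell by 1.02 (SE 0.24, limma adjusted p = 0.0166). This call ended with median centring (adjusted p = 0.0568) and without the Ad.DKK-1 pair, where the mean difference was −0.70 (adjusted p = 0.106), and over 9 alternatives the adjusted p ran from 0.00145 to 0.106.

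Over the HGF axis, Hgf included, 5 of 8 measured genes passed the filter, with 2 lower and none higher with Ad.DKK-1, 1 lower and 1 higher with ICG-001, and 1 lower with FJ9, and medians of 0.066, −0.41 and −0.55. Over all 8 genes, without the filter, the median with Ad.DKK-1 turned to −0.60. Met, the receptor gene, went the other way from Hgf. It read 7.89 on Ad.DKK-1, 9.75 on ICG-001 and 8.38 on FJ9, against 7.40, 7.57 and 7.89 on their controls, and its mean difference of 1.05 (SE 0.31, limma adjusted p = 0.0493) came mostly from the 2.17 with ICG-001. The groups of Met just overlapped, and its differences with Ad.DKK-1 and FJ9, both 0.49, fell short of 1.5-fold.

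Notch3, a Notch receptor that mural cells need to mature around vessels, was lowest on Ad.DKK-1. It read 5.37 on Ad.DKK-1, 6.97 on ICG-001 and 6.17 on FJ9, against 6.99, 6.81 and 6.31 on their controls. Notch3 passed the level filter through its controls, at a mean of 6.44 against 6.39. The levels on Ad.DKK-1, FJ9 and the vehicle for FJ9 lay under that limit. The ICG-001 array thus lay above 2 of the 3 controls, and the groups overlapped. The differences were −1.62, 0.16 and −0.14, and the mean of −0.53 had a 95% interval from −1.27 to 0.20 (limma adjusted p = 0.353). Without the Ad.DKK-1 pair the mean difference was 0.0068. The vehicles themselves differed by −0.50, and against the vehicle for FJ9 the ICG-001 array was 0.66 higher.

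Of 17 measured Notch pathway genes, Notch3 included, 14 passed the filter, and 5 were lower and 1 higher with Ad.DKK-1, 3 lower and 2 higher with ICG-001, and 2 lower and none higher with FJ9. The 2 lower genes with FJ9 and the 2 higher with ICG-001 are near the shares of 14.8% and 12.6% over all genes. The medians were −0.26, 0.0040 and −0.079, and against the other compound's vehicle 0.40 with ICG-001. Limma called Heyl and Notch4, both lower, and the groups of Notch4 overlapped. Heyl, a transcription factor that Notch induces in mural cells, read 6.45 on Ad.DKK-1, 5.81 on ICG-001 and 5.62 on FJ9, against 7.73, 6.99 and 7.33 on their controls. All treated arrays lay under all controls, and the mean fell by 1.39 (SE 0.28, limma adjusted p = 0.00706). Heyl passed the level filter through its controls, since its ICG-001 and FJ9 levels lay under 6.39. Jag1, a Notch ligand, differed by 0.93, 1.81 and −0.091, and Hes1, another target, by −1.01, 0.11 and −0.48.

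Kcnj8 encodes Kir6.1, the pore of the ATP-sensitive potassium channel of mural cells. It read 9.14 on Ad.DKK-1, 8.39 on ICG-001 and 8.10 on FJ9, against 10.40, 9.27 and 9.69 on their controls. The Ad.DKK-1 array came within 0.13 of the lowest control, the narrowest gap after that of Pdgfrb among the 8 genes whose groups stood apart. The differences were −1.26, −0.87 and −1.59, and the mean fell by 1.24 (SE 0.22, limma adjusted p = 0.00282).

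Abcc9 encodes SUR2, the regulatory subunit that pairs with Kir6.1 in these channels. It read 8.31 on Ad.DKK-1, 9.52 on ICG-001 and 7.91 on FJ9, against 10.08, 10.33 and 10.10 on their controls, and its mean fell by 1.59 (SE 0.25, limma adjusted p = 0.00138). Both channel genes had their widest difference with FJ9 and their narrowest with ICG-001 against own controls, but for Kcnj8 this order turned with the other compound's vehicle (−1.30 with ICG-001 and −1.17 with FJ9), and its vehicles lay 0.43 apart. Of the other subunits, Kcnj11 was under the level filter and Abcc8 differed by −0.55, −0.69 and −0.020, so that 2 of the 3 filtered subunits were lower with Ad.DKK-1, 3 with ICG-001 and 2 with FJ9, with medians of −1.26, −0.81 and −1.59. Over all 4 subunits, without the filter, the medians were −0.91 with Ad.DKK-1 and −0.81 with FJ9.

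Aoc3 encodes vascular adhesion protein 1, a surface amine oxidase of mural cells and endothelium. It read 6.99 on Ad.DKK-1, 5.79 on ICG-001 and 5.46 on FJ9, against 8.63, 8.25 and 7.44 on their controls. No treated array reached any control, although the vehicle arrays lay 0.81 apart, the widest vehicle difference of the 10 genes. The Aoc3 levels on ICG-001 and FJ9 lay under the filter level of 6.39, and the gene passed the filter through its controls. The differences were −1.64, −2.46 and −1.98, and against the other compound's vehicle they became −1.65 for ICG-001 and −2.79 for FJ9. The mean over the pairs fell by 2.03 (SE 0.27, limma adjusted p = 0.000475). The related gene Aoc1 differed by −0.17, −0.38 and 0.60, so of the 2 amine oxidases measured Aoc3 alone was lower in each treatment and called by limma, and Aoc1 was higher with FJ9, where its vehicles lay −0.97 apart.

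Colec11 encodes collectin 11, a secreted lectin that starts the lectin pathway of complement with MASP proteases. It read 9.54 on Ad.DKK-1, 10.26 on ICG-001 and 9.68 on FJ9, against 11.85, 11.45 and 10.90 on their controls. The groups stood 0.64 apart, and the difference of −2.31 with Ad.DKK-1 was the 42nd lowest of all genes. With ICG-001 it was −1.20, which became −0.64 against the other vehicle, and with FJ9 −1.22. The mean fell by 1.58 (SE 0.23, limma adjusted p = 0.000723).

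Colec11 included, all 5 collectin and protease genes measured passed the filter, and 5 were lower with Ad.DKK-1, 1 with ICG-001 and 4 with FJ9, none higher, with medians of −0.75, −0.17 and −0.89. Limma called Colec11 and Colec12, a scavenger receptor collectin whose mean fell by 1.18 (SE 0.34, limma adjusted p = 0.0462). Colec12 differed by −1.21, −0.10 and −2.23, and its groups overlapped. Colec10, which forms complexes with collectin 11, differed by −0.75, −0.17 and −0.85, and Masp1 by −0.69, −0.12 and −0.89, neither called.

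Cspg4, the gene of the NG2 proteoglycan, was not called by limma, and its groups overlapped. It read 6.40 on Ad.DKK-1, 6.77 on ICG-001 and 6.82 on FJ9, against 7.17, 7.24 and 6.73 on their controls, and the FJ9 array lay above its own vehicle. The vehicles were 0.51 apart, as far as the −0.47 with ICG-001, which became 0.038 against the vehicle for FJ9. The mean of −0.38 had a 95% interval from −0.99 to 0.22 (limma adjusted p = 0.415). Of 4 filtered chondroitin sulfate proteoglycan genes, Cspg4 included, 3 were lower with Ad.DKK-1, 1 lower and 1 higher with ICG-001 and 1 lower with FJ9, with medians of −0.61, −0.20 and 0.042 and no limma call.

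**Figure D3:**
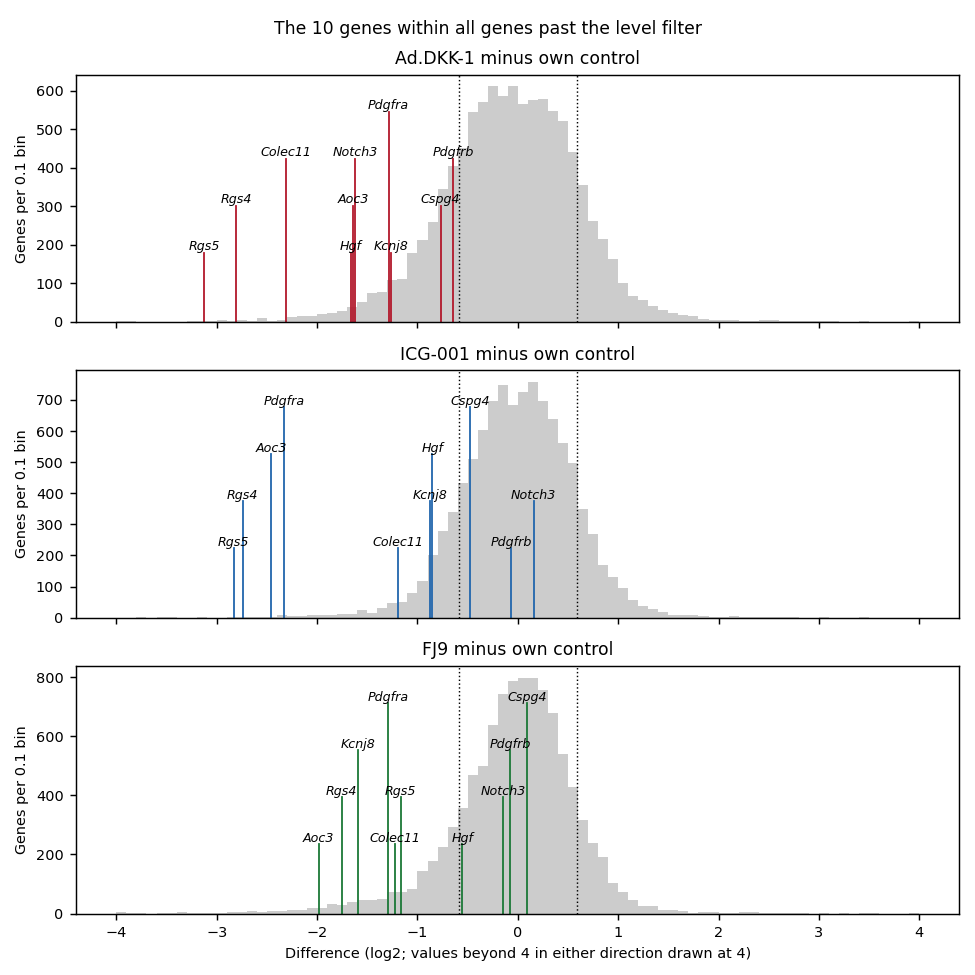
Histograms of the log2 difference of 10025 genes (x axis, bins of 0.1; y axis, genes per bin), 1 panel for each treatment minus its own control, with coloured lines at the 10 named genes and dotted lines at 1.5-fold. Line heights carry no value. Rgs4 and Rgs5 stand in the far left tail with Ad.DKK-1 and ICG-001, and Pdgfrb and Notch3 lie within the dotted lines with ICG-001 and FJ9.

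Other genes used as pericyte or mural markers were counted to see how far the named 10 stand for them. Of 19 measured, 13 passed the filter, and 7 were lower and 1 higher with Ad.DKK-1, 4 lower and 2 higher with ICG-001, and 8 lower and 1 higher with FJ9. Their medians were −0.98, −0.47 and −0.79, but over all 19, without the level filter, −0.50 with Ad.DKK-1 and −0.32 with FJ9. Limma called 5 lower and none higher, namely Abcc9, Steap4, Angpt1, Cd248 and P2ry14. The groups of Cd248 overlapped, and its difference with ICG-001, −0.47, became 0.37 against the other compound's vehicle. Steap4, a metalloreductase, read 10.48 on Ad.DKK-1, 10.69 on ICG-001 and 9.12 on FJ9, against 11.86, 11.86 and 11.47 on their controls (mean difference −1.64, SE 0.22, limma adjusted p = 0.000556). Angpt1, the ligand through which mural cells act on the endothelial receptor TIE2, had a mean difference of −1.26 (SE 0.24, limma adjusted p = 0.00566).

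Members of that list also went the other way. Mcam, a surface marker of mural cells, differed by −0.032 with Ad.DKK-1, 1.41 with ICG-001 and −0.70 with FJ9. Anpep, the aminopeptidase CD13, differed by −0.98, 0.64 and 1.01. Des, an intermediate filament gene that marks both stellate cells and mural cells, lay above its control with Ad.DKK-1 (0.31) and ICG-001 (0.33) and below it with FJ9 (−0.88).

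**Figure D4:**
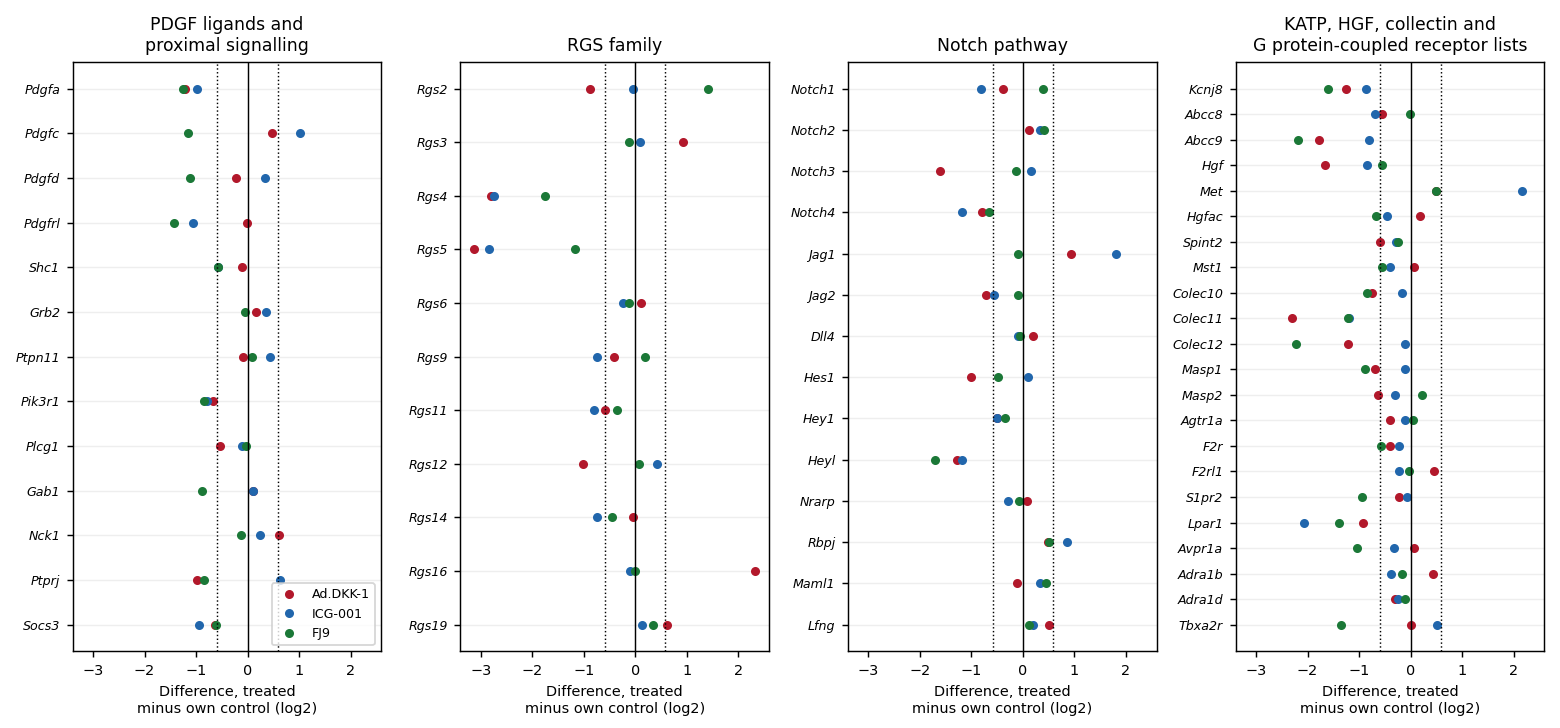
Difference of treated minus own control (log2, x axis) for every gene past the level filter in the lists of PDGF signalling, RGS genes, Notch genes and, in the right panel, channel subunits, the HGF axis, collectins and G protein-coupled receptors (rows), with 1 point for each treatment. Dotted lines mark 1.5-fold. Rgs4, Rgs5, Pdgfa, Abcc9, Heyl and Lpar1 have all 3 points left of the lower line, Met reaches 2.17 with ICG-001 and Rgs16 2.33 with Ad.DKK-1.

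Across the 6 arrays the 10 genes formed 45 pairs, with Pearson r from 0.059 to 0.98, a median of 0.77 and 18 pairs at 0.8 or more. The points share the split into treated and control arrays and the 3 pairs, so these values are descriptions. Colec11 and Hgf were most alike (r = 0.980), followed by Rgs4 with Rgs5 (0.943) and Rgs5 with Pdgfra (0.938). Pdgfra and Pdgfrb had r = 0.29 and Pdgfra and Notch3 r = 0.059, while Pdgfrb and Notch3, both lowest on Ad.DKK-1, had r = 0.905.

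For each of the 10, the genes most like it over the 6 arrays were sought among 4059 genes (4060 for Pdgfrb and Cspg4) that spanned at least 1 log2 unit, and high values of r arise readily with so few arrays. Rgs4 was closest to Sectm1b (r = 0.998), Mgp, the matrix Gla protein gene (0.996), and Nt5e, the ectonucleotidase CD73 (0.990). Sectm1b differed by −2.81, −2.40 and −1.65 in the 3 treatments, and Mgp by −2.19, −2.31 and −1.67. Rgs5 was closest to Tapbp (0.995), Gsta4 (0.991) and Inha (0.991), and Pdgfra to P3h4 (0.992), Llgl2 (0.991) and Lpar1 (0.988).

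The nearest genes to Pdgfrb were Ccdc28a (r = 0.998), Sparcl1 (0.996) and Rit1 (0.995), which differed by −1.43, −2.46 and −1.12 with Ad.DKK-1. Aoc3 was followed by Tmem51 (0.990), Ppfia2 (0.989) and Tmem176a (0.987), Colec11 by Jmjd8 (0.996), Lrp5 (0.989) and Ctsc (0.989), and Hgf by Ctsc (0.988), Ptk2b (0.982) and Serpine2 (0.981). For Kcnj8 the closest were Rig1 (0.995), B9d1 (0.994) and Stat2 (0.992), for Notch3 Mpc2 (0.986), Nit2 (0.984) and Slc35d1 (0.981), and for Cspg4 RT1-DMa (0.997), Col11a2 (0.975) and Nyx (0.972).

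The control arrays were not interchangeable. Ad.GFP lay above both vehicle arrays in 9 of the 10 genes, Cspg4 being the exception, against 41.2% of all genes. The excess over the mean of the vehicles was widest for Rgs5 at 1.34, Kcnj8 at 0.92 and Aoc3 at 0.79, and smallest for Pdgfrb at 0.12. Infection, the serum schedule and the total time differ together between Ad.GFP and the vehicles and cannot be told apart.

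Macrophage markers were followed as a possible second cell type. The mean level of 10 macrophage and Kupffer cell markers was 6.10 to 6.27 on the treated arrays and 6.81 to 7.06 on the controls, with no overlap. This was not particular to them. The means over PDGF signalling, RGS, G protein-coupled receptor, channel subunit, HGF axis and collectin genes did not overlap either. Neither did those over other pericyte genes and stellate cell markers, while the remaining lists overlapped. Of the 10 macrophage and Kupffer cell markers, 3 passed the level filter, and 3 of the 3 were lower with Ad.DKK-1, 2 with ICG-001 and 2 with FJ9. Limma called Csf1r, the receptor of colony-stimulating factor 1 (mean difference −1.15, adjusted p = 0.0205), which passed the filter through its controls, and Cd14, which stellate cells express too (−1.18, adjusted p = 0.00167). Adgre1 and Clec4f, both on the macrophage and Kupffer cell list, were under the filter. Adgre1 read 4.51 on Ad.DKK-1 against 7.03 on Ad.GFP, with 4.11 to 4.96 on the other 4 arrays. Members also lay above their controls, Clec4f by 0.40 with Ad.DKK-1 and 0.23 with FJ9, Cd163 by 0.21 with FJ9 and C1qb by 0.12 with ICG-001. Their part in the results above was not tested.

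Stellate cell markers had a mean level over 11 genes of 8.37 to 9.21 on the treated arrays and 9.30 to 9.55 on the controls, and their members differed among themselves. Of 9 past the filter, 6 were lower with Ad.DKK-1, 2 lower and 1 higher with ICG-001, and 6 lower with FJ9, with medians of −0.87, −0.28 and −0.88, and the counts with ICG-001 stand beside 13.1% of all genes lower and 12.6% higher. Des, described above, and Nes, another intermediate filament gene, lay above their controls with Ad.DKK-1 and ICG-001, Nes by 0.066 and 0.69, while Nes differed by −2.23 with FJ9. Limma called 4 of the 9 lower, Lrat, Hand2, Cygb and Tcf21. Lrat differed by −1.31, −1.42 and −3.34 (mean difference −2.03, SE 0.31, limma adjusted p = 0.00108). Its groups overlapped, and its vehicles lay −0.95 apart. Tcf21, a transcription factor of stellate cells, had a mean difference of −0.97 (SE 0.19, limma adjusted p = 0.00659).

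The other marker lists held few genes past the filter. Of 3 endothelial genes, 2 were lower with Ad.DKK-1, 1 with ICG-001 and 1 with FJ9, and limma called Clec14a lower. The 6 endothelial genes measured averaged 6.33 to 6.75 on the treated arrays and 6.63 to 7.14 on the controls. Of 2 hepatocyte genes 1 was higher with Ad.DKK-1 and 1 lower with ICG-001, of 3 cholangiocyte genes 1 was lower with ICG-001, and neither list had a limma call. Of 3 portal fibroblast genes, Gas6, also made by stellate cells, was lower with Ad.DKK-1 and FJ9 and Entpd2 with ICG-001. Limma called Gas6, with a mean difference of −1.18 (adjusted p = 0.00323).

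**Figure D5:**
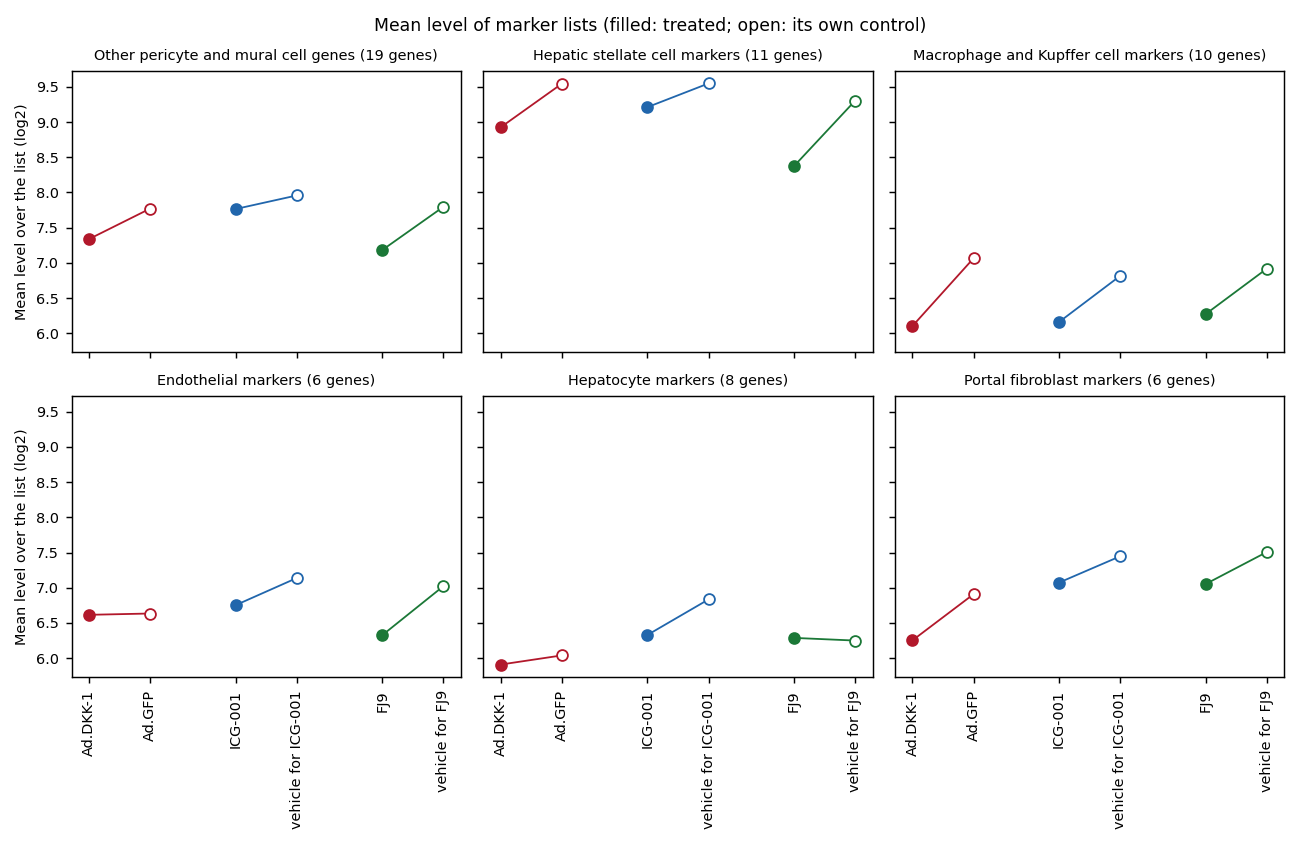
Mean log2 level (y axis) over all measured genes of 6 marker lists on the 6 arrays, the treated array as a filled point left of its own control, an open point. The macrophage and Kupffer cell list stands at 6.10 to 6.27 on the treated arrays and 6.81 to 7.06 on the controls, and the stellate cell list at 8.37 to 9.21 and 9.30 to 9.55.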

How the data were processed

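RNA of 6 pooled cultures was hybridised to Affymetrix whole-transcript arrays, 1 array a group. Per the submitters' processing notes, the authors ran RMA within Affymetrix Expression Console, and what they deposited is 1 log2 value for each probe set on each array. The sources used here name no version. All 6 columns were used as deposited. Of 26988 probe sets, the platform annotation gave 15092 a single gene symbol and 323 several, and the other 11573 are unnamed here. The probe set with the highest mean stood for a gene. Entrez identifiers of all 10 genes matched the RefSeq table of GRCr8. Genes above the lowest 30% of mean level were kept (10025).

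Differences are treated minus own control, counted at 1.5-fold without a test. limma 3.58.1 in R 4.3.3 (lmFit, eBayes with trend, two-sided, Benjamini-Hochberg over 10025 genes, threshold 0.05) tested the mean over the 3 pairs with pair as a block, with 2 residual degrees of freedom a gene. Tested on simulated data of 10025 genes, it called 73% of 200 genes shifted by 1 log2 unit and 100% of those shifted by 2. It also called 14 and 11 unchanged genes. Each shifted gene moved equally in all 3 simulated pairs, which 3 different treatments need not do. Partners and cell markers were counted over lists, Kcnj8, Rgs5 and other named genes included where they belong. The 10 genes and the lists were chosen with earlier results of these data known. Named are all 10, list genes with the widest differences or that partner the 10, markers that define a cell type, and the 3 genes most like each. Alternatives were 3 other scalings, the other vehicle, 2-fold, no filter, averaged probe sets, no trend, no block and leaving out each pair.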

Additional observations from a re-analysis of the deposited data

How the results depend on the processing

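Each count of lower genes among the 10 stayed within 1.5 times its value under every alternative run: 8 to 10 with Ad.DKK-1, 5 to 7 with ICG-001, 6 to 8 with FJ9 and 6 to 7 by limma. Under the 3 other scalings the 1.5-fold call of Pdgfrb with Ad.DKK-1 ended, median centring also ended the limma call of Hgf (adjusted p = 0.0568), and it gave Pdgfrb a positive difference with ICG-001 (0.11). With the other vehicle Hgf lost its call with ICG-001 (−0.48) and gained it with FJ9 (−0.92), Notch3 lay past 1.5-fold with both compounds in opposite directions (0.66 with ICG-001 and −0.64 with FJ9), and Cspg4 changed sign with both (0.038 and −0.42). This alternative changes only the vehicle array, and why the 2 vehicle arrays differ was not tested. Over all genes limma called 503 lower and 357 higher; with median centring 247 were lower, without the trend 221 were higher, and without the replicate block (treated against control with no pairing) 255 were lower and 167 higher, while 7 of the 10 genes were called lower either way. Leaving out each pair in turn gave 165 to 269 higher genes, the fewest without the ICG-001 pair, and a mean Notch3 difference of −0.88 to 0.0068. At 2-fold, 793, 329 and 601 genes were lower with Ad.DKK-1, ICG-001 and FJ9, and without the level filter 3236 were lower with Ad.DKK-1 and 2337 with ICG-001. Averaging probe sets changed nothing for the 10, which have 1 each. With 1 pooled array a group, no difference of a single treatment has an error of its own.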
